A study of Mus musculus with 24 samples.

Results

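Mature oligodendrocytes are the cells that wrap axons of the central nervous system in myelin, a stacked membrane rich in lipid and in a few abundant proteins. They arise from oligodendrocyte precursor cells through a short newly formed stage, and the change is driven by transcription factors such as Olig2, Sox10 and Myrf. Besides insulating axons, they pass metabolites to them, take up potassium and carry receptors for neuronal transmitters.

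The nuclei described here are those the authors named NN-ODC in the amygdala of adult male mice. They were taken as every column of the deposited RNA and ATAC count tables with that name, which gave 1727 of 21648 RNA nuclei and 75 of 19119 ATAC nuclei. The groups were the inbred strains DBA and BL6, untreated as far as the labels say, aged 10 to 16 weeks, with 2 libraries per strain and assay and the amygdalae of about 2 animals pooled in each. Nuclei for RNA were sorted with a target of about 75% NeuN-positive nuclei, so shares of cell types are partly set by the sort. Non-neuronal types made up 45.9% and 30.1% of RNA nuclei in DBA libraries 2 and 3, against 36.6% and 53.0% in BL6 libraries 2 and 3. The RNA assay gave transcript counts for each gene, and the ATAC assay gave counts of open chromatin per peak. The count tables number the libraries of each strain 2 and 3, and these numbers are used here. Of the 24 samples in the series, the 16 methylation samples were not analysed here.

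NN-ODC nuclei numbered 224 and 288 in DBA libraries 2 and 3, against 766 and 449 in BL6 libraries 2 and 3. Their summed RNA counts were 1104956 and 969635 in DBA, against 2697769 and 1541050 in BL6. DBA library 2 had 4933 counts per NN-ODC nucleus, above the 3367 of DBA library 3 and the 3522 and 3432 of the BL6 libraries. NN-ODC made up 7.81% and 4.59% of RNA nuclei in DBA, against 9.48% and 10.1% in BL6. The means were 6.20 ± 2.28% in DBA and 9.81 ± 0.469% in BL6 (SD, n = 2 each), and the strains did not overlap. The exact two-sided permutation test gave p = 0.333, which is the smallest value that 2 libraries against 2 allow. Of non-neuronal nuclei alone, NN-ODC were 17.0% and 15.3% in DBA, against 25.9% and 19.1% in BL6. In ATAC there were only 11 and 19 NN-ODC nuclei in DBA, against 9 and 36 in BL6, or 0.298% and 0.418% of nuclei in DBA, against 0.228% and 0.519% in BL6.

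Sequences at the starts of 3 identity genes are shown first, because each lies in a peak that was most open in NN-ODC. They are the 250 bases before the start in RefSeq on GRCm38.p6, written 5′ to 3′ on the gene's strand. Ermn, which encodes the cytoskeletal protein ermin, lies on the minus strand and its window is chr2:58052865-58053114. Mag, which encodes the myelin-associated glycoprotein of the inner myelin membrane, lies on the minus strand. Its window, chr7:30914864-30915113, belongs to 1 of 3 listed starts. Cldn11, which encodes the tight junction protein of myelin, lies on the plus strand and its window is chr3:31149670-31149919. Capitals mark ACAAAG, the core of the site bound by SOX factors, written CTTTGT on the other strand, and CTGGCAC, a form of the MYRF site.
Ermn: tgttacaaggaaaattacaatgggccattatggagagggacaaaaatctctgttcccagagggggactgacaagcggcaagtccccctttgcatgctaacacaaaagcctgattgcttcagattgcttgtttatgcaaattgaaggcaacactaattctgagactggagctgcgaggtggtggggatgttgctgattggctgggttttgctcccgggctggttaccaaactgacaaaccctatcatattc
Mag: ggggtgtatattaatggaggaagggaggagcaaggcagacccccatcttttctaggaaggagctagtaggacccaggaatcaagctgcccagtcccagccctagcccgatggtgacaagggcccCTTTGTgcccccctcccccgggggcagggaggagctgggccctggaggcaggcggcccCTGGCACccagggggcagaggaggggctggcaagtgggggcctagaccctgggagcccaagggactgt
Cldn11: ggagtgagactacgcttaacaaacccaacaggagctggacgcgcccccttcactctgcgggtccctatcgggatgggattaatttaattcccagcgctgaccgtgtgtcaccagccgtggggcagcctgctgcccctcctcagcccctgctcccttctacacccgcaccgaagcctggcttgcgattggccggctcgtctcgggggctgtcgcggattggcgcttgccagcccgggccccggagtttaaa
Both strands were searched. ACAAAG stood in 16.5% of the 32817 mouse promoter windows of this length and in 4 of 10 windows of the identity genes, which came from Mag, Mobp and Opalin. CTGGCAC stood in 4.19% of all windows and in 3 of the 10, from Hapln2 and Mag. CTGGTAC, the other form searched, stood in 1.83% of all windows and in 1 of the 10, from Mog. Some of the Mag windows overlap each other, so these are not separate sequences. The motifs did not overlap one another within the Mag window shown.

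The name NN-ODC went with its markers. Levels are in CPM, which are counts of NN-ODC scaled to a total of 1000000 per library and not corrected for transcript length. Of the 22 cell types in the RNA data, NN-ODC was compared with 19. These had at least 10 nuclei and 50000 counts in each library. The endothelial and mural cells were not among them. Mbp, the basic protein that holds the cytoplasmic faces of myelin together, averaged 4547 ± 120 CPM over the 4 libraries, and the next highest type, the precursors NN-OPC, averaged 169 CPM. Mog, the glycoprotein of the outer myelin surface, averaged 1058 ± 44.2 CPM, and no other type compared averaged above 12.3 CPM. Cldn11 and Aspa were the least specific of the 10 identity markers. Cldn11 averaged 361 CPM in NN-ODC, against 92.5 CPM in NN-Endo-VLMC, and Aspa, the enzyme that splits N-acetylaspartate, 1025 CPM in NN-ODC, against 292 CPM in NN-VLMC. Since the authors named the types from these same nuclei, these levels are a description and were not tested.

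**Figure D1:**
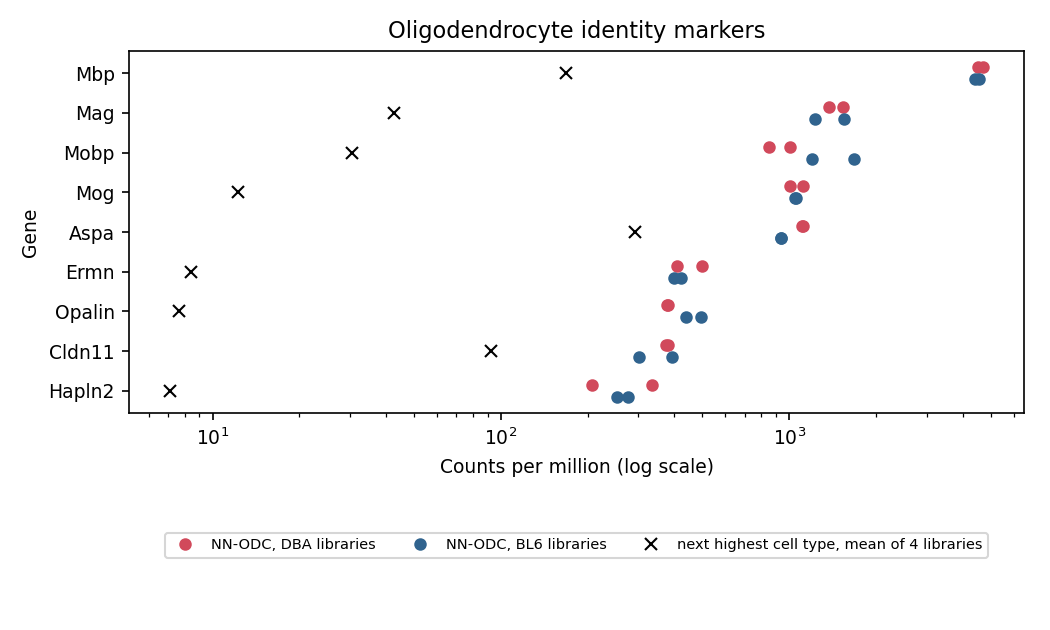
Levels of 9 oligodendrocyte identity markers in CPM on a log axis. Points are the DBA and BL6 libraries of NN-ODC, and crosses are the mean of the next highest cell type among those compared. Each point lies to the right of its cross, from Mbp between 4421 and 4709 to Hapln2 between 207 and 335.

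Of 1562 genes at 100 CPM or more in NN-ODC, 240 were at least 2-fold above every other type compared, by their mean over libraries. With 1 CPM added to both levels, the gene with the highest ratio to the next type was Galnt5, a mucin-type glycosyltransferase, at 225 ± 16.4 CPM, against 0.716 CPM in the next type, Inh-Htr3a. Prr5l, a partner of the mTOR complexes, averaged 1550 ± 38.1 CPM, against 17.4 CPM in the microglia NN-MGC. Mog, Fbxw15 and Opalin were also among the 12 highest ratios, along with 7 genes that have provisional names. With 10 CPM added, 5 of these 12 genes stayed among the 12 highest. Galnt5, with a ratio of 22.0, was not among them, and Prr5l had a ratio of 56.9.

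RNA of other cell types was present at low levels. The summed level of 10 neuronal markers was 717 and 1203 CPM in DBA, against 1972 and 969 CPM in BL6, while neurons had 17189 to 18781 CPM. The sum of 10 microglial markers was 87.8 and 89.7 CPM in DBA, against 211 and 210 CPM in BL6, with 8744 to 11447 CPM in microglia. The sum of 10 precursor markers was 146 and 198 CPM in DBA, against 268 and 175 CPM in BL6. The sum of 10 astrocyte markers was 258 and 283 CPM in DBA, against 344 and 362 CPM in BL6. Markers of endothelial and mural cells summed to 8.15 and 4.13 CPM in DBA, against 23.7 and 40.9 CPM in BL6. Those of vascular leptomeningeal cells, NN-VLMC, summed to 6.34 and 3.09 CPM in DBA, against 17.8 and 22.7 CPM in BL6. Over all genes tested in NN-ODC, 4.89% were called lower in DBA. Of the tested markers, 2 of 10 neuronal, 1 of 6 astrocyte, 1 of 4 microglial and 1 of 7 precursor genes were called lower in DBA and none was called higher. Among these were Snap25 and Grin2b of neurons, the transporter Slc1a2 of astrocytes and the phosphatase Ptprz1 of precursors. Snap25, a protein of synaptic vesicle release, had 48.0 and 68.1 CPM in DBA, against 128 and 82.4 CPM in BL6, with an adjusted p of 0.0235 by edgeR that was 0.282 without DBA library 2 and 0.526 without BL6 library 2. Their part in the strain differences below was not tested.

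The strain comparison used edgeR's quasi-likelihood test on genes counted in both strains, because many symbols had counts in 1 strain only. A gene was kept when both strains gave it at least 10 counts summed over every nucleus, which left 22155 of 34039 genes. Of 10356 genes tested in NN-ODC, 838 had an adjusted p under 0.05, which is 8.09%. In DBA, 332 were higher (3.21%) and 506 lower (4.89%). In 48.8% of all genes tested the DBA and BL6 libraries did not overlap, so the absence of overlap says little about a single gene. Of the 838 genes, 175 were called in the same direction in 10 or more of the 19 other cell types fitted, and 326 in none of them. Among those called were 12 genes of the mitochondrial genome, such as mt-Co3, at 3.62 and 3.09 CPM in DBA, against 1579 and 1845 CPM in BL6. The strains were not counted under the same gene names, since 127 pairs of an older and a newer symbol each split by strain. Sept7 had 2913 and 1825 counts in BL6 and 0 in both DBA libraries. Its newer symbol Septin7 had 1439 and 1263 counts in DBA and 0 in both BL6 libraries. How far the gene models differed beyond names is not given in the sources used here. The part of such a difference in large differences of single genes was not tested.

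Of 21 tested structural myelin genes, 1 was higher and 1 lower in DBA, a share near the 8.09% of all genes. The median log2 fold change was 0.17, against 0.000702 over all genes. Mbp was at 4709 and 4513 CPM in DBA, against 4421 and 4544 CPM in BL6, with a log2 difference of 0.18 ± 0.12 (SE) and an adjusted p of 0.448 by edgeR. Mog was at 1117 and 1010 CPM in DBA, against 1055 and 1051 CPM in BL6. The strains overlapped in both genes. Aspa missed the threshold narrowly, with 1118 and 1111 CPM in DBA, against 939 and 934 CPM in BL6, and an adjusted p of 0.0522.

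Mobp, a small basic protein of the major dense line of myelin, was the only identity marker called. Outside NN-ODC, Mobp was called lower in DBA in 6 of 10 other types and higher in none. Its log2 difference was -1.47 in NN-OPC and -1.87 in NN-Astro. In NN-ODC it had 852 and 1008 CPM in DBA, against 1201 and 1672 CPM in BL6. The log2 difference there was -0.49 ± 0.15 with an adjusted p of 0.0400 by edgeR. The call was lost without DBA library 2 (adjusted p = 0.135) and without BL6 library 3 (adjusted p = 0.624). Plekhb1, a membrane-associated protein with a pleckstrin homology domain, was higher in DBA, at 93.2 and 98.0 CPM, against 60.8 and 69.4 CPM in BL6 (log2 0.71 ± 0.19, adjusted p = 0.00950). Without BL6 library 2 its adjusted p was 0.197. Neither gene's strains overlapped.

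**Figure D2:**
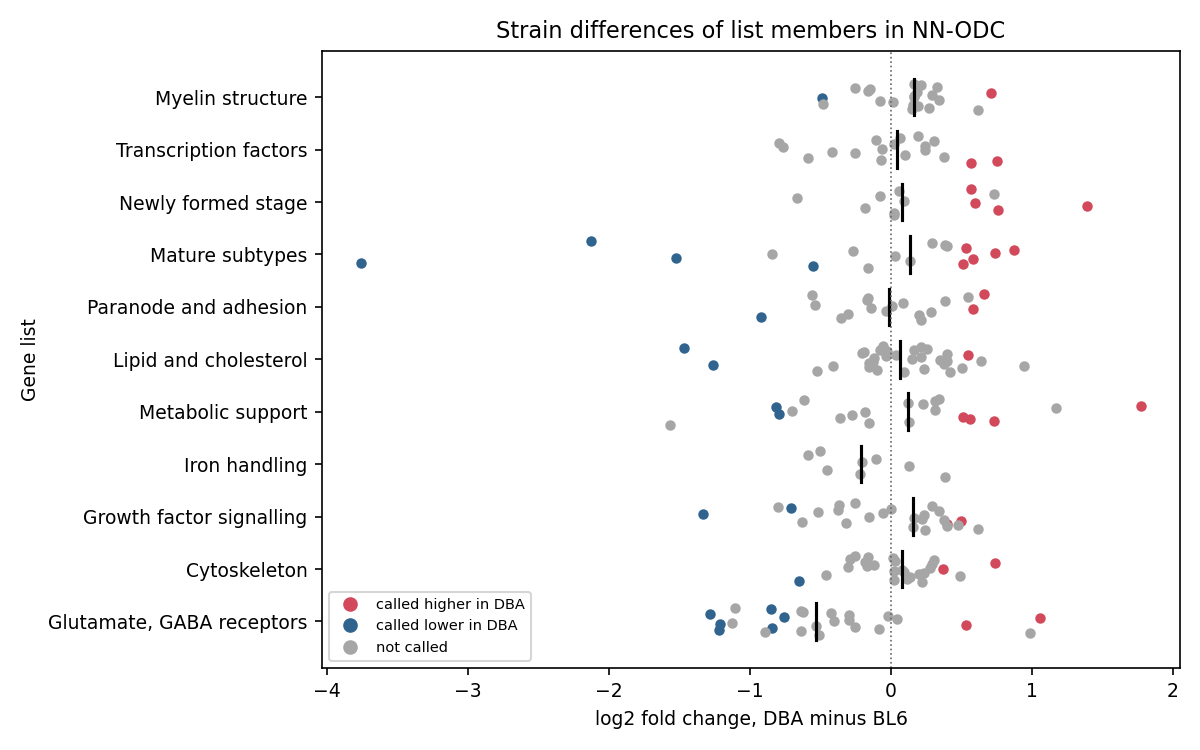
Each point is the log2 fold change, DBA minus BL6, of a tested member of a gene list in NN-ODC, with black bars at the list medians. Most points are grey, meaning not called. The points farthest to the left are Neat1 at -3.76 and Ptgds at -2.13 in the mature subtype list, and the median of the transmitter receptors is -0.53.

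Among 18 transcription factors of the lineage, 2 were called higher in DBA and none lower. Over all genes the shares were 3.21% higher and 4.89% lower. Sox10, which drives most myelin genes, was at 398 and 428 CPM in DBA, against 378 and 394 CPM in BL6 and was not called (adjusted p = 0.377). Myrf, the factor that starts myelination, was at 137 and 145 CPM in DBA, against 131 and 198 CPM in BL6 (adjusted p = 0.909). Nkx6-2, a homeobox factor of mature oligodendrocytes, was higher in DBA, at 129 and 109 CPM, against 65.2 and 94.1 CPM in BL6 (log2 0.75 ± 0.19, adjusted p = 0.00728). Tcf7l2, a Wnt pathway factor that marks newly formed cells, had 134 and 92.8 CPM in DBA, against 80.1 and 90.8 CPM in BL6, with an adjusted p of 0.0471 that became 0.0516 with RLE factors. Tcf7l2 was called higher also in 1 of 8 other types, NN-OPC (log2 0.79). Both calls in NN-ODC were lost without DBA library 2, where the adjusted p was 0.104 for Nkx6-2 and 0.714 for Tcf7l2. They were also lost without BL6 library 2, at 0.357 for Nkx6-2 and 0.390 for Tcf7l2.

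Of 12 tested genes of the newly formed stage, 4 were higher in DBA and none lower, and Tcf7l2 was 1 of the 4. The median log2 fold change of the list was 0.08, and 3.21% of all genes tested were called higher. Enpp6, a choline phosphodiesterase that marks cells beginning to myelinate, had 126 and 103 CPM in DBA, against 81.2 and 67.5 CPM in BL6 (log2 0.76 ± 0.18, adjusted p = 0.00321). Itpr2, an inositol trisphosphate receptor, had 109 and 51.6 CPM in DBA, against 28.2 and 42.2 CPM in BL6 (log2 1.39 ± 0.33, adjusted p = 0.0212). The higher of its DBA values came from DBA library 2. Itpr2 averaged 57.6 CPM in NN-ODC, against 479 CPM in NN-OPC and 433 CPM in NN-MGC. Tcf7l2 averaged 99.4 CPM in NN-ODC, against 240 CPM in NN-OPC and 481 CPM in NN-Astro. Enpp6 and Mpzl1 had their highest means in NN-ODC. The part of RNA from other types in these differences was not tested. Mpzl1, a cell surface glycoprotein, had 200 and 207 CPM in DBA, against 129 and 172 CPM in BL6. Bcas1, a defining gene of the stage, was at 596 and 513 CPM in DBA, against 588 and 589 CPM in BL6 and was not called. Without DBA library 2 the adjusted p was 0.128 for Enpp6 and 0.232 for Itpr2, whose log2 difference was then 0.72. Without BL6 library 2 it was 0.507 for Mpzl1. Neu4, Gpr17 and Bmp4 were too low to test.

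The widest strain differences of any list were among genes that mark subtypes of mature oligodendrocytes. Of 17 tested, 5 were higher and 4 lower in DBA, against 8.09% of all genes called. Neat1, a long non-coding RNA that builds nuclear paraspeckles, was at 69.7 and 56.7 CPM in DBA, against 891 and 1010 CPM in BL6. Its log2 difference was -3.76 ± 0.17 (adjusted p = 3.28e-20), and it was also called lower in 12 of 13 other types. Ptgds, the prostaglandin D synthase, was at 336 and 341 CPM in DBA, against 1675 and 1590 CPM in BL6. Its log2 difference was -2.13 ± 0.14 (adjusted p = 2.68e-15), and it was called lower in 13 of 18 other types. Its level was 986 CPM over the 4 NN-ODC libraries and 21411 CPM in NN-VLMC, whose summed markers, given above, were also lower in NN-ODC of DBA. The part of RNA from NN-VLMC in this difference was not tested. Both genes were several-fold lower in each DBA library than in each BL6 library.

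Il33, an alarmin cytokine that oligodendrocytes hold in the nucleus, was at 82.4 and 82.5 CPM in DBA, against 259 and 267 CPM in BL6. The log2 difference was -1.53 ± 0.17 with an adjusted p of 4.23e-09, and in the 1 other type where it could be tested it was not called lower. Apoe, the lipid carrier, was at 575 and 553 CPM in DBA, against 977 and 853 CPM in BL6 (log2 -0.55 ± 0.14, adjusted p = 0.00510). Without BL6 library 2 its adjusted p was 0.118. The calls of Neat1, Ptgds and Il33 held without each library in turn.

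The genes of the same list that were higher in DBA changed less. Anln, an actin-binding protein of myelin, had 437 and 358 CPM in DBA, against 241 and 289 CPM in BL6 (log2 0.74 ± 0.15, adjusted p = 0.000797). Car2, the carbonic anhydrase of oligodendrocytes, had 1198 and 1023 CPM in DBA, against 844 and 884 CPM in BL6 (log2 0.51 ± 0.13, adjusted p = 0.0102). Grm3, a metabotropic glutamate receptor, had 1417 and 1132 CPM in DBA, against 1008 and 941 CPM in BL6 (log2 0.53 ± 0.14, adjusted p = 0.00717). Serpinb1a, a protease inhibitor, and Cdh19, a cadherin, were higher by 0.87 ± 0.25 and 0.58 ± 0.16 on the log2 scale. In each of these 5 genes the highest value was that of DBA library 2. Without that library the adjusted p was 0.146 for Car2, 0.189 for Grm3, 0.687 for Serpinb1a and 0.433 for Cdh19. Without BL6 library 2 it was 0.0716 for Anln, 0.186 for Car2, 0.117 for Serpinb1a and 0.208 for Cdh19, and without BL6 library 3 it was 0.0731 for Grm3.

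**Figure D3:**
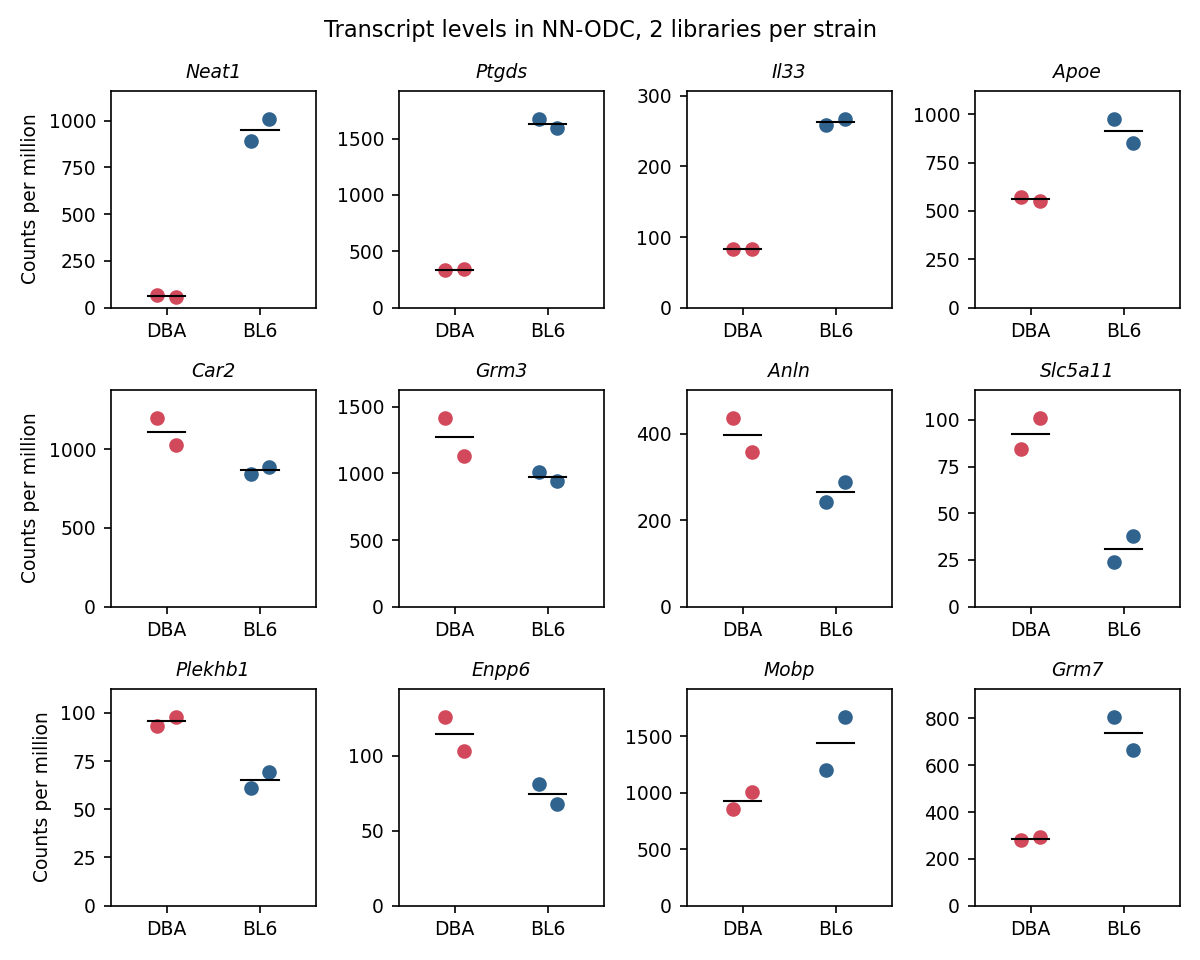
Levels of 12 genes in NN-ODC in CPM, each axis from 0, with DBA libraries left and BL6 libraries right and a bar at each strain's mean. Neat1, Ptgds, Il33, Apoe, Mobp and Grm7 are lower in both DBA libraries than in both BL6 libraries, and the other 6 genes are higher.

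Genes for the support of axons and for membrane adhesion held a few differences. Of 20 tested genes of metabolic support and transport, 4 were higher and 2 lower in DBA, against 8.09% of all genes called. Slc5a11, a sodium-coupled inositol transporter, had 84.2 and 101 CPM in DBA, against 24.1 and 37.6 CPM in BL6 (log2 1.77 ± 0.23, adjusted p = 2.69e-07), and its call held without each library. Slco3a1, an organic anion transporter, had 181 and 163 CPM in DBA, against 115 and 116 CPM in BL6 (log2 0.73 ± 0.16, adjusted p = 0.00179). It was called higher also in 1 of 19 other types, NN-OPC. Car2, described above, and Car14, another carbonic anhydrase, made up the rest of the higher genes. Slc1a2, the main glutamate transporter of astrocytes, was lower in DBA, at 41.6 and 56.7 CPM, against 84.9 and 104 CPM in BL6. It is itself 1 of the 10 astrocyte markers summed above, so that sum is not a separate observation. Slc1a2 was called lower also in 4 of 19 other types, but not in NN-Astro (log2 0.04). The ion channel Trpm3 was the other lower gene, at 32.6 and 37.1 CPM in DBA, against 68.2 and 66.8 CPM in BL6. Without DBA library 2 the adjusted p was 0.103 for Car14, 0.211 for Slc1a2 and 0.163 for Trpm3. Without BL6 library 2 it was 0.278 for Car14 and 0.0621 for Trpm3, and without BL6 library 3 it was 0.0547 for Car14 and 0.0967 for Slc1a2.

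Of 18 tested genes of the paranode and of adhesion, 2 were higher and 1 lower in DBA, against 8.09% of all genes called. Cntnap2, a neurexin family protein of the juxtaparanode, had 77.8 and 84.6 CPM in DBA, against 163 and 178 CPM in BL6 (log2 -0.92 ± 0.17, adjusted p = 0.000183). It was called lower also in 3 of 19 other types, among them the precursors NN-OPC (log2 -0.99), and higher in 1. Neuronal types averaged 1220 to 7495 CPM of it. The median of the neuronal markers in NN-ODC was -0.74 on the log2 scale, and the part of neuronal RNA was not tested. Sema6d, a transmembrane semaphorin, had 407 and 493 CPM in DBA, against 315 CPM in both BL6 libraries (log2 0.66 ± 0.14, adjusted p = 0.00151). It was called higher also in 3 of 18 other types, NN-OPC among them. The calls of Cntnap2 and Sema6d in NN-ODC held without each library but not at the 1.5-fold threshold. Cdh19, described above, was the other higher gene.

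Of 32 tested genes of lipid and cholesterol synthesis, 1 was higher and 2 lower in DBA, with a median log2 fold change of 0.07. That share is near the 8.09% of all genes called. Elovl7, a fatty acid elongase, had 389 and 352 CPM in DBA, against 301 and 258 CPM in BL6 (log2 0.55 ± 0.15, adjusted p = 0.0111). It was called higher also in 1 of 9 other types, NN-OPC. Nsdhl, an enzyme of late cholesterol synthesis, had 8.15 and 8.25 CPM in DBA, against 25.2 and 25.3 CPM in BL6 (log2 -1.47 ± 0.39, adjusted p = 0.00979), and was called lower in 9 of 12 other types. Smpd3, a neutral sphingomyelinase, had 9.05 and 11.3 CPM in DBA, against 27.8 and 26.0 CPM in BL6 (adjusted p = 0.0207). Without DBA library 2 the adjusted p was 0.115 for Elovl7, 0.0955 for Nsdhl and 0.231 for Smpd3. Without DBA library 3 it was 0.0533 for Nsdhl and 0.0547 for Smpd3, without BL6 library 2 it was 0.111 for Smpd3, and without BL6 library 3 it was 0.156 for Elovl7. None of 8 tested genes of iron handling was called.

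Of 25 tested genes of growth factor and inhibitory signalling, 2 were higher and 2 lower in DBA, against 8.09% of all genes called. Lrp4, a receptor of the Wnt and agrin pathways, had 16.3 and 13.4 CPM in DBA, against 43.4 and 39.6 CPM in BL6 (log2 -1.33 ± 0.31, adjusted p = 0.00263). Its call held without each library but not with DESeq2 or at the 1.5-fold threshold. Nrg3, a neuregulin ligand, was lower, while Erbb4, a neuregulin receptor, and Igf1r, the receptor of insulin-like growth factor, were higher. Nrg3 had 97.7 and 140 CPM in DBA, against 250 and 175 CPM in BL6, and Erbb4 had 2423 and 2208 CPM in DBA, against 1992 and 1899 CPM in BL6. Igf1r had 221 and 228 CPM in DBA, against 164 and 188 CPM in BL6. Without DBA library 2 the adjusted p was 0.196 for Nrg3, 0.201 for Erbb4 and 0.103 for Igf1r, and without BL6 library 2 it was 0.308 for Nrg3, 0.221 for Erbb4 and 0.479 for Igf1r. It was 0.0642 for Igf1r without DBA library 3 and 0.222 for Erbb4 without BL6 library 3.

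Of 27 tested cytoskeletal genes, 2 were higher and 1 lower in DBA, against 8.09% of all genes called. Anln is described above. Pde4b, a cyclic AMP phosphodiesterase and among the most abundant transcripts of the cells, had 9391 and 9027 CPM in DBA, against 8056 and 7703 CPM in BL6 (log2 0.37 ± 0.12, adjusted p = 0.0370). Pde4b was called higher also in NN-OPC, and lower in 1 of the 19 other types tested. Tuba1a, an alpha tubulin, had 86.0 and 89.7 CPM in DBA, against 169 and 136 CPM in BL6 (log2 -0.66 ± 0.17, adjusted p = 0.00988). It was called lower also in 8 of 19 other types, among them NN-OPC (log2 -0.73) and NN-Astro (log2 -0.82). Without DBA library 2 the adjusted p was 0.0800 for Pde4b and 0.0718 for Tuba1a, without BL6 library 2 it was 0.199 for Pde4b and 0.226 for Tuba1a, and without BL6 library 3 it was 0.227 for Pde4b. Septins, which scaffold myelin, carried an older symbol in BL6 and a newer one in DBA. With both symbols joined, Septin7 had 1302 and 1303 CPM in DBA, against 1080 and 1184 CPM in BL6 (log2 0.35, adjusted p = 0.106).

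Receptors for glutamate and GABA were the list with the most lower genes. Of 25 tested, 6 were lower and 2 higher in DBA, against 8.09% of all genes called. The median log2 fold change was -0.53. Neuronal markers, given above, had a median of -0.74 in the same nuclei, and Grin2b is on both lists. The part of neuronal RNA in the receptor values was not tested. Grm7, a presynaptic metabotropic glutamate receptor, had 280 and 293 CPM in DBA, against 807 and 666 CPM in BL6 (log2 -1.22 ± 0.14, adjusted p = 2.52e-08). It was called lower in none of the 19 other types and higher in 1, and held without each library. Grik1, a kainate receptor subunit, was higher, at 242 and 165 CPM in DBA, against 129 and 84.4 CPM in BL6 (log2 1.06 ± 0.21, adjusted p = 0.00217). Grm3, described above, was the other higher gene. Grin2b, Gria1, Grm5 and Gabra2 were lower by -0.76 to -1.22 on the log2 scale. These 4 calls were lost without DBA library 2, with adjusted p from 0.0783 to 0.253. Without BL6 library 2, which had the highest sum of neuronal markers, the calls of Gria1, Grm5 and Gabra2 were lost, with adjusted p from 0.171 to 0.640.

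Of 26 genes of reactive and immune states, 8 were high enough to test and Il33 alone was called, against 8.09% of all genes. The interferon and antigen presentation genes on that list, such as Ifit3, Tap1 and Cd74, were too low to test in NN-ODC.

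The following 16 genes were chosen for a large change and for not being called alike in 10 or more other types. Fcho1, a membrane-bending protein of endocytosis, was at 180 and 172 CPM in DBA, against 4.45 and 4.54 CPM in BL6 (log2 5.42 ± 0.25, adjusted p = 3.53e-20). It was called in none of the 15 other types tested. Mylk, the myosin light chain kinase, was at 61.5 and 67.0 CPM in DBA, against 2.97 and 1.30 CPM in BL6 (log2 4.88 ± 0.37). Slpi, a secreted protease inhibitor, was at 54.3 and 56.7 CPM in DBA, against 5.56 and 5.19 CPM in BL6 (log2 3.49 ± 0.33). Only 1 other type, NN-OPC, could be tested for Slpi, and it was called higher there too. Banf2, Adam11, Pxdn, Dlk2 and Aldh1a1 were higher by 2.65 to 3.59 on the log2 scale. Pxdn was also called higher in NN-Astro, and lower in 2 of the 14 other types tested. Aldh1a1, a retinaldehyde dehydrogenase, had 98.6 CPM in DBA library 2 and 49.5 CPM in DBA library 3, against 13.7 and 12.3 CPM in BL6.

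Among the lower genes, Spock1, a testican proteoglycan, was at 10.9 and 18.6 CPM in DBA, against 214 and 297 CPM in BL6 (log2 -3.98 ± 0.25, adjusted p = 2.18e-13). Tnni1, the slow skeletal troponin I, was at 4.53 and 9.28 CPM in DBA, against 132 and 124 CPM in BL6 (log2 -4.08 ± 0.29). No other type fitted had enough counts to test it. Apbb1ip, an adaptor of Rap1 signalling that microglia express, was at 0.905 and 1.03 CPM in DBA, against 40.4 and 51.9 CPM in BL6, and stands beside the lower sum of microglial markers in DBA. Ephb2, Tmem163, Ppp1cc, Fabp5 and Arhgef19 were lower by -2.27 to -2.90 on the log2 scale. Some of these differences were shared with other types. Arhgef19 was tested in 2, NN-OPC and NN-Astro, and called lower in both. Fabp5 was called lower in 6 of 12. Tmem163 was called lower in 5 of 14 and Apbb1ip in 3 of 11, NN-OPC among them for each. Spock1 was called lower in NN-OPC and higher in 1 of the 17 tested. All 16 genes held their calls without each library.

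Whether a strain difference in NN-ODC differed from that in another type was tested directly, with each library as a block. Against all neurons, 507 of 18615 genes differed (2.72%), against the precursors NN-OPC 282 of 12674 (2.23%), and against the astrocytes NN-Astro 344 of 14672 (2.34%). Fcho1 differed from all 3, with log2 differences of the strain effects of 5.39 ± 0.28, 4.94 ± 0.50 and 5.33 ± 0.46. In neurons Fcho1 was at 34.9 and 36.7 CPM in DBA, against 33.4 and 40.2 CPM in BL6. Arhgap26, a GTPase-activating protein, ran in opposite directions. In NN-ODC it was higher in DBA, at 54.3 and 46.4 CPM, against 17.4 and 15.6 CPM in BL6, whereas in neurons it was at 38.1 and 36.6 CPM in DBA, against 307 and 320 CPM in BL6. It was called lower in DBA in 17 of 18 other types.

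Spock1 and Dscaml1, a cell adhesion protein, were lower in DBA in NN-ODC and nearly level in neurons. In neurons Spock1 was at 291 and 313 CPM in DBA, against 306 and 313 CPM in BL6. Dscaml1 was at 132 and 147 CPM in DBA, against 586 and 665 CPM in BL6 in NN-ODC, while NN-OPC had 714 and 909 CPM in DBA, against 849 and 930 CPM in BL6. Sema5a, a semaphorin, was at 228 and 189 CPM in DBA, against 36.7 and 56.5 CPM in BL6 in NN-ODC, while NN-OPC had 382 and 407 CPM in DBA, against 352 and 349 CPM in BL6. For Psat1, an enzyme of serine synthesis, the difference lay in neurons. NN-ODC had 52.5 and 60.8 CPM in DBA, against 60.4 and 90.2 CPM in BL6, and neurons averaged 21.1 ± 1.64 CPM in DBA and 2.07 ± 0.231 CPM in BL6 (SD, n = 2 each). Frmd4a, a scaffold of cell polarity, differed in the precursors, with 1164 and 1220 CPM in DBA, against 188 and 111 CPM in BL6, while NN-ODC had 164 and 158 CPM in DBA, against 187 and 145 CPM in BL6.

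**Figure D4:**
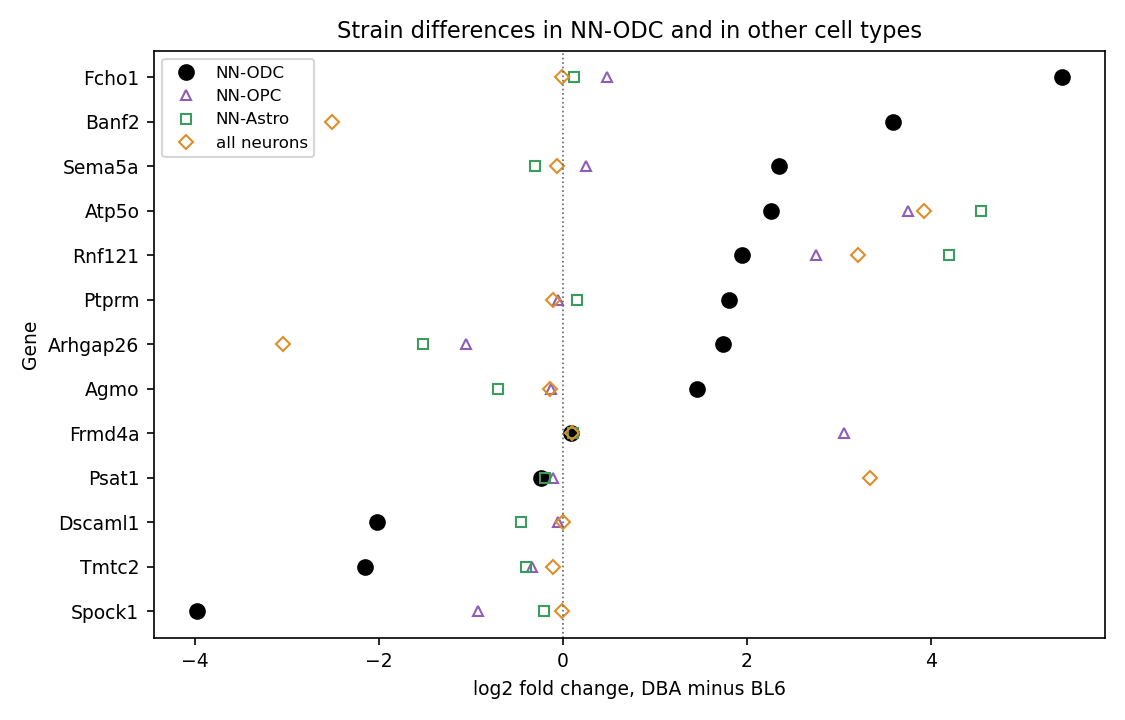
Log2 fold change, DBA minus BL6, of the 13 genes named for a difference between cell types, in NN-ODC (filled circles), NN-OPC, NN-Astro and all neurons (open marks). Fcho1 stands at 5.42 in NN-ODC and near 0 in neurons, and Arhgap26 is positive in NN-ODC alone. A gene without an open mark for a type was too low to test there.

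Chromatin near most myelin genes with a peak was most open in NN-ODC among the 6 cell types compared, which did not include the vascular types. Of the 10 identity genes, 4 had a peak within 2 kb of a start (Mag, Mobp, Ermn and Cldn11), and all 4 were highest in NN-ODC. Their summed accessibility was 136 ATAC CPM in NN-ODC, 25.3 in NN-OPC, 7.54 in NN-Astro, 6.70 in NN-MGC, 5.28 in excitatory neurons and 6.05 in inhibitory neurons. The Mobp peak held only 5 counts in NN-ODC, with 0 in DBA library 3. Of 22 structural myelin genes 14 had such a peak, and 12 of the 14 were highest in NN-ODC, all but Cd9 and Myoc. For Pllp the ratio to the next type was only 1.06. Of the lineage transcription factors with such a peak, 6 of 13 were highest in NN-ODC. Over all 19299 genes with such a peak 23.7% were highest in NN-ODC, and over the peaks with 20 or more counts in NN-ODC it was 4519 of 10311. Olig2, which precursors also use, had 38.8 ATAC CPM in NN-ODC, against 69.7 in NN-OPC. Among peaks with 20 or more counts in NN-ODC, chr2:58052698-58053095 had the highest ratio to the next type, with 1 CPM added to both levels. It lies over the start of Ermn shown above and had 29 counts in NN-ODC.

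**Figure D5:**
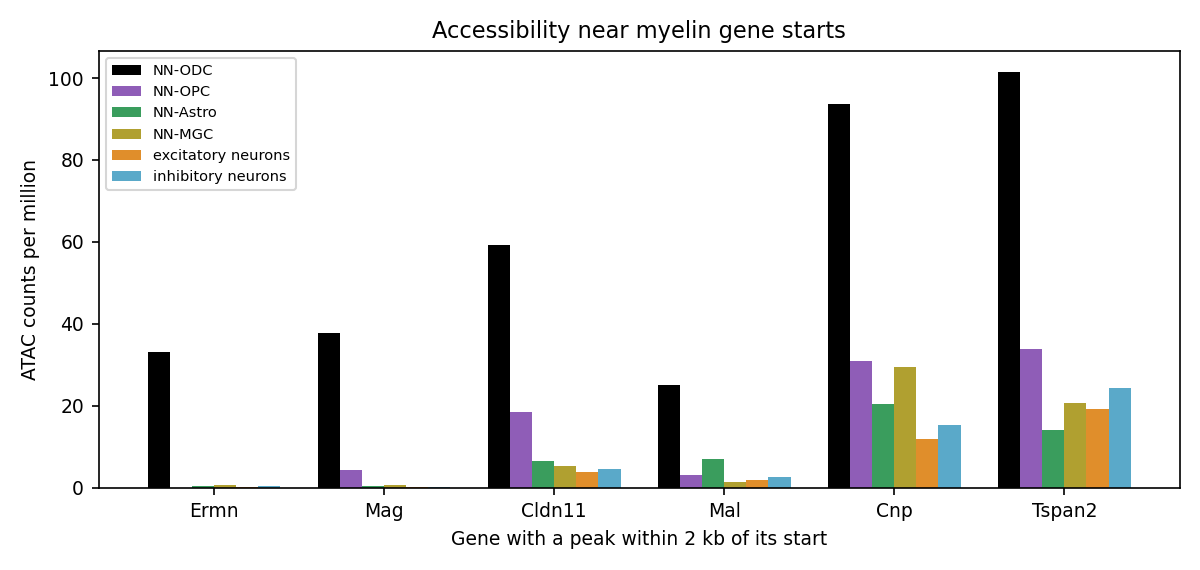
Accessibility in ATAC CPM of peaks within 2 kb of the start of 6 myelin genes, as bars from 0 for 6 cell types, libraries pooled. The NN-ODC bar is the highest for each gene, from 25.1 for Mal to 102 for Tspan2. Cd9 and Myoc, which also had such a peak, were not highest in NN-ODC and are not shown.

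Peaks far from gene starts were common among the most selective ones. Of 10311 peaks with 20 or more counts in NN-ODC, 155 were at least 4-fold above every other type compared. This ratio had 1 CPM added to both levels. Of the 155, 11.6% lay within 2 kb of a gene start, against 69.9% of all 10311. The peaks were filtered on NN-ODC counts alone, so selective peaks could enter through that type only, and the contrast was not tested. At this depth 44.1% of the 271433 peaks had no count in NN-ODC, so a peak without counts may still be open.

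Between strains accessibility is given as counts, without a test by the design used, since BL6 library 2 held 9 ATAC nuclei. The NN-ODC columns held 244386 and 169831 ATAC counts in DBA, against 116421 and 345577 in BL6, so values are also given in CPM. The Mag peak had 6 and 9 counts in DBA, against 8 and 10 in BL6, which is 24.6 and 53.0 ATAC CPM in DBA, against 68.7 and 28.9 in BL6. The Ermn peak had 7 counts in both DBA libraries, against 4 and 11 in BL6, which is 28.6 and 41.2 ATAC CPM in DBA, against 34.4 and 31.8 in BL6. The strains overlapped in both peaks. The Cldn11 peak had 11 and 7 counts in DBA, against 13 and 21 in BL6, which is 45.0 and 41.2 ATAC CPM in DBA, against 111.7 and 60.8 in BL6. At the start of Fcho1, whose RNA was higher in DBA, there were 5 and 4 counts in DBA, against 1 and 9 in BL6, or 20.5 and 23.6 ATAC CPM in DBA, against 8.59 and 26.0 in BL6. Ptgds had 4 and 3 counts in DBA, against 8 and 15 in BL6, or 16.4 and 17.7 ATAC CPM in DBA, against 68.7 and 43.4 in BL6. Counts this low cannot show any but large differences.

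RNA and accessibility were then set side by side over genes with 10 or more ATAC counts within 2 kb of a start. Among genes called for RNA, the strain difference had the same sign in both in 284 of 494 (57.5%), and among all genes tested in 3613 of 7308 (49.4%). Of the genes called lower in DBA, 185 of 301 were also less open in DBA (61.5%), near the 59.4% of all genes tested that were less open in DBA. Of those called higher, 99 of 193 were more open in DBA (51.3%), against 40.6% of all genes tested. These are descriptions of the 4 libraries and were not tested.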

How the data were processed

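The deposited RNA table holds counts per gene and the ATAC table counts per peak. The authors had summed both within each cell type of each library. Software versions in the submitters' processing notes are Cell Ranger 6.0.2, Seurat 4.0.5 and Cell Ranger ATAC 2.0.0, with the build mm10. Filters on nuclei, doublet treatment and gene models are not given in the sources used here. Cell type names are the authors' own. RNA libraries held 30693629 to 66304405 counts in all and ATAC libraries 66535381 to 86927891. Intervals and counts of reads cover counting error only.

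Genes to which both strains gave at least 10 counts summed over every nucleus were tested with edgeR 4.0.16 (R 4.3.3). Low genes were dropped by filterByExpr (minimum count 10), libraries were scaled by TMM, and the quasi-likelihood fit was robust, with Benjamini-Hochberg adjustment over all genes tested and a threshold of 0.05. SEs come from the same fit. The restriction to genes counted in both strains, the members and the gene lists were chosen with earlier results of these data known. Interactions subtracted the strain difference of another type from that of NN-ODC, with the library as a block. Named genes were the 8 called each way with the largest change at 20 CPM or more, leaving out genes called alike in 10 or more other types, provisional names and mitochondrial genes. They also included up to 3 called members per list by p, 3 called genes each way per interaction by p, and 10 identity markers. Other list members were named after their values were seen. Some genes chosen this way are not reported here. Alternatives included DESeq2 1.42.0. Scripts were tested on simulated data. A cell type needed 10 nuclei in each column for a test, which ATAC NN-ODC lacked. Promoter windows came from RefSeq.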

Additional observations from a re-analysis of the deposited data

Results flagged for a closer look

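The strain difference in NN-ODC and that in another cell type differed, by an interaction test in edgeR, for the genes named per comparison. Values are the log2 strain difference (DBA minus BL6) in NN-ODC minus that in the other type. Against all neurons it was 5.39 for Fcho1, 4.75 for Arhgap26, 6.12 for Banf2, -3.98 for Spock1, -3.55 for Psat1 and -2.04 for Dscaml1. Banf2 was at 41.6 and 61.9 CPM in DBA, against 5.56 and 3.24 CPM in BL6 in NN-ODC, and at 0.888 and 1.06 CPM in DBA, against 5.64 and 5.83 CPM in BL6 in neurons.

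Against the precursors NN-OPC it was 4.94 for Fcho1, 2.13 for Sema5a, 1.88 for Ptprm, -2.96 for Frmd4a, -1.94 for Dscaml1 and -1.80 for Tmtc2. Ptprm, a receptor tyrosine phosphatase, was at 163 and 233 CPM in DBA, against 57.5 and 68.8 CPM in BL6 in NN-ODC, and at 181 and 185 CPM in DBA, against 204 and 198 CPM in BL6 in NN-OPC.

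Against the astrocytes NN-Astro it was 5.33 for Fcho1, 3.24 for Arhgap26, 2.17 for Agmo, -1.76 for Tmtc2, -2.27 for Atp5o and -2.25 for Rnf121. Atp5o, part of the ATP synthase of mitochondria, was higher in DBA in both types, at 147 CPM in both DBA libraries, against 36.3 and 30.5 CPM in BL6 in NN-ODC, and at 881 and 956 CPM in DBA, against 44.5 and 41.4 CPM in BL6 in NN-Astro. Each of these 18 differences held its direction and its call under each alternative run, leaving out each library included.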

How the results depend on the processing

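The count of 838 genes called in NN-ODC was 335 with DESeq2, 317 with a 1.5-fold threshold and 1279 with every gene of the table, against 825 with RLE factors, 872 with total counts alone, 933 with no filter and 841 with symbols joined. Total counts alone split the calls as 228 higher and 644 lower, and the median log2 fold change of all genes was then -0.128. With the library number as a replicate block it was 677. The numbers are not known to pair the libraries, and the correlation of library differences between strains was -0.071 over 6581 genes. Leaving out 1 library gave 520 to 935, with 520 without DBA library 2 and 552 without BL6 library 2. DESeq2 called 134 genes for the interaction with neurons, 38 with NN-OPC and 60 with NN-Astro. Leaving out 1 library gave 211 to 435, 156 to 272 and 149 to 399 genes. With neurons the count was 222 without DBA library 2 and 211 without BL6 library 2. With NN-OPC it was 156 without DBA library 2, and with NN-Astro 149, 214 and 221 without DBA library 2, DBA library 3 and BL6 library 2. The cause of these changes was not tested.

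The share of NN-ODC in RNA stayed lower in DBA in each alternative run. In ATAC it was lower by -0.0153 percentage points, and turned to 0.0450 without DBA library 2 and 0.130 without BL6 library 3, within a range of -0.16 to 0.13 over libraries left out. Of 66 called genes followed, 36 kept their call without each library. Among the same genes 27 lost it with DESeq2, 35 at the 1.5-fold threshold, 12 with the replicate block, 9 with total counts alone, 4 with no filter and 1 with RLE factors. Genes not called that changed sign were Hapln2 (log2 -0.216 without DBA library 2 to 0.518 without DBA library 3), Psat1 (-0.561 without BL6 library 2 to 0.0646 without BL6 library 3) and Frmd4a (-0.0571 without BL6 library 3 to 0.266 without BL6 library 2, and -0.0390 with total counts alone). The planned ATAC alternatives were not run. An ATAC test chosen after seeing the data, with a minimum of 9 nuclei, called 10 of 4887 peaks, 7 higher and 3 lower in DBA. The low ATAC depth and the 2 libraries per strain limit what can be seen.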
